A study of Mus musculus with 8 samples.

Results

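Fibroblasts surround themselves with an extracellular matrix whose non-collagen part is the subject here: the glycoproteins, elastic fibre proteins and crosslinking enzymes. The list held 51 genes chosen by name, of which 47 had a probe set carrying their symbol alone in the array annotation, out of 18193 genes measured. Efemp2, Fbn1, Loxl2 and Spp1 had no such probe set and are given no value. The 47 measured genes comprised 15 elastic fibre and microfibril genes, 4 lysyl oxidase genes, 9 laminin and nidogen genes, 14 matricellular genes and 5 other matrix genes (fibronectin, a hyaluronan-binding proteoglycan, and linker or adaptor proteins). Each gene was represented by the probe set with the highest mean log2 signal over the 8 arrays, a choice that uses no difference between populations.

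RNA had been hybridized to Affymetrix arrays covering the mouse genome from 4 populations of mouse adult fibroblasts (MAFs), grown from the peritoneal fascia of mice with loxP sites in both copies of Rb. All 4 populations carried p53DD, a truncated p53 that acts as a dominant negative, so no cells with working p53 enter these comparisons. Cre Recurred cells had lost exon 19 of Rb to adenoviral Cre recombinase, had been given cisplatin (CDDP) for 24 h and had grown back in fresh media. GFP Recurred cells had received the GFP adenovirus in place of Cre, had kept Rb and had been through the same CDDP treatment. Cre Naïve and GFP Naïve cells were the corresponding RB-deficient and RB-proficient cells without CDDP. Every population was a pool of retrovirally selected cells, and 2 arrays labelled as biological replicates were made of each. The comparisons address what recovery from CDDP did to these matrix genes with and without RB.

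Elastic fibres form when the elastin protein is laid down on microfibrils of fibrillin with the help of fibulins, and lysyl oxidases then crosslink elastin and collagen. Laminins and nidogens build the basement membrane, while matricellular proteins such as tenascin C and the thrombospondins sit in the matrix without carrying load and bind cell receptors and growth factors. Cultured fibroblasts are a major source of most of these proteins.

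For 27 of the 47 genes the RefSeq promoter table (GRCm38.p6) held a start site. The 6 sequences below are those of the genes with the largest called differences between the Recurred populations among the genes with an entry. Each gives the 250 bases before the first listed start, 5′ to 3′ on the strand of the gene, with CG dinucleotides, the sites at which mammalian DNA can be methylated, in capitals. The first listed start is not always the outermost one. The windows of Thsd4 and Mfap2 lie inside the annotated genes (chr9:59966931-60522113 and chr4:141010424-141015976), and that of Efemp1 runs past the annotated gene start at 28853154. Among the other windows counted below, those of Emilin1, Fbln2, Ltbp4, Tnxb, Ecm1 and Vcan also lie within their genes. That of Lama2 does so almost wholly, and those of Ltbp1, Ltbp2, Lama5, Lamb1, Lamb2 and Hapln1 overlap their genes in part. No methylation was measured on these arrays.
Efemp1 (chr11:28852955-28853204, plus strand): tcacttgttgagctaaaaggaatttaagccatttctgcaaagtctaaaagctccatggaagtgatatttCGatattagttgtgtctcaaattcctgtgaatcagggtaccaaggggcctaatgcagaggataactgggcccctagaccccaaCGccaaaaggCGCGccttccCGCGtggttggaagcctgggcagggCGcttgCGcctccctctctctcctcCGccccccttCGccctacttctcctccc
Thbs2 (chr17:14694263-14694512, minus strand): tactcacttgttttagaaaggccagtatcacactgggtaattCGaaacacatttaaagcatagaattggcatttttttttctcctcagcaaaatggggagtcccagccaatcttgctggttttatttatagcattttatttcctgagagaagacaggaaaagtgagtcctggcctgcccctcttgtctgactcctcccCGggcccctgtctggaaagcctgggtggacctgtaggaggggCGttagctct
Tnc (chr4:64047016-64047265, minus strand): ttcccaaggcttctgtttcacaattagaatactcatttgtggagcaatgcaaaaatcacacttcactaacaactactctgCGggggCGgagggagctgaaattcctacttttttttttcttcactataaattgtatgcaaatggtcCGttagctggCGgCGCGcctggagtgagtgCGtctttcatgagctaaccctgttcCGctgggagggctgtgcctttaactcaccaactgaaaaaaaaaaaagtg
Mfap2 (chr4:141010431-141010680, plus strand): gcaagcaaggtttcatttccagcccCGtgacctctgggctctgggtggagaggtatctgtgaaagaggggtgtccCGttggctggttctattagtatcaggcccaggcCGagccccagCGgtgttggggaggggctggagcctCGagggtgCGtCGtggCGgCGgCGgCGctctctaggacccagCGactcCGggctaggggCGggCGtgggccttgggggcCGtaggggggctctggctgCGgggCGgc
Thsd4 (chr9:60511036-60511285, minus strand): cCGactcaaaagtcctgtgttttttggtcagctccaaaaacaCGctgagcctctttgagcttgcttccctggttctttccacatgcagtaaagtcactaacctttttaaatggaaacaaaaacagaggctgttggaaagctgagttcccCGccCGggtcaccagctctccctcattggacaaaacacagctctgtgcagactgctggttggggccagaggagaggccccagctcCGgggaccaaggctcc
Loxl4 (chr19:42612807-42613056, minus strand): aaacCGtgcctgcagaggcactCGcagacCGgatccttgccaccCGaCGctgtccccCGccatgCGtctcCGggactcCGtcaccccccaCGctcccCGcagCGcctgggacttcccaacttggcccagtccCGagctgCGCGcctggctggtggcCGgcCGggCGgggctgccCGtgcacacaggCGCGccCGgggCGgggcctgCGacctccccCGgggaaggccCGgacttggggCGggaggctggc

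The number of CG dinucleotides in these windows was 10 in Efemp1, 3 in Thbs2, 8 in Tnc, 18 in Mfap2, 5 in Thsd4 and 27 in Loxl4. Loxl4, which was higher in Cre Recurred cells, had the most of the 27 matrix promoters. Lama2, also called higher than in GFP Recurred cells, had 0. Among the genes called lower than in GFP Recurred cells the number ran from 3 in Thbs2 to 21 in Fbln5. The median was 8 over the 27 matrix promoters and 6 over all 27025 promoters, whose quartiles were 2 and 16. The letters TATAAA, those of a TATA box, were found on either strand in Thbs2, Tnc and Ecm1, which is 11.1% of the matrix promoters against 13% of all promoters. TGANTCA, the letters of an AP-1 site, which read the same on both strands, occurred in Efemp1, Tnxb and Ecm1, again 11.1%, against 6.9% of all promoters. The short letters CAGAC, which SMAD factors can bind, occurred on either strand in 66.7% of the matrix promoters and 42.1% of all promoters, and in 42.9% (3 of 7) of the promoters of matrix genes called lower in Cre Recurred than GFP Recurred cells. Such matches are descriptions of the sequence only.

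The deposited log2 signals had array medians between 5.37 and 5.41. Rb1 itself gave log2 signals of 4.98 and 5.45 on the Cre Recurred arrays, 8.21 and 8.78 on the GFP Recurred arrays, 6.21 and 5.72 on the Cre Naïve arrays and 7.98 and 8.07 on the GFP Naïve arrays, so all Cre arrays lay below all GFP arrays, as labelled. Of 10 fibroblast markers, 9 (Fap was the exception) had a log2 signal of at least 8.39 on every array, whereas the defining markers of endothelium (Pecam1, Cdh5) and leukocytes (Ptprc) reached at most 4.32 on any array. Other markers of these cells were brighter: Kdr gave 5.91 to 6.23, Csf1r 6.37 to 8.19, Cd14 8.88 to 9.94 and Lyz2 4.45 to 6.92 over the 8 arrays. The fibroblast markers moved with the matrix genes: their median deviation from the mean of the 8 arrays was -0.97 and -0.08 on the Cre Recurred arrays, against 0.19 and 0.45 on the GFP Recurred arrays, and 3 of the 10 were lower and 1 higher at the thresholds given below. Of 8 mesothelial markers, Msln, Krt7 and Krt19 were higher in Cre Recurred than GFP Recurred cells at these thresholds. The Krt7 signals of 4.64 and 4.78 in Cre Recurred cells lay below the array medians. Wt1, Krt18 and Krt8 differed by -0.40, -0.12 and 0.36 without a call, and Upk3b and Lrrn4 reached at most 4.14. The median deviation of the list was 0.17 and 0.39 on the Cre Recurred arrays, against -0.08 and -0.07 on the GFP Recurred arrays. Myf5, a regulator of the muscle lineage, had log2 signals of 7.05 and 6.80 in Cre Recurred cells, 2.75 and 2.32 in GFP Recurred cells, 2.66 and 6.77 in Cre Naïve cells and 2.59 and 5.29 in GFP Naïve cells. The rest of the skeletal muscle list, Myod1, Myog and Pax7, gave 3.18 to 5.43 over the 8 arrays and was called in no comparison. Each was highest on Cre Naïve replicate 2, at 5.09, 5.43 and 4.68. Of 5 smooth muscle markers, Des was called higher in Cre Recurred than GFP Recurred cells (log2 difference 1.65, SE 0.40, adjusted p = 0.109, limma). Its signals were 7.28 and 7.49 against 5.72 and 5.75, with 5.90 and 7.32 in Cre Naïve and 6.10 and 6.35 in GFP Naïve cells. Acta2, Tagln and Cnn1 gave at least 10.61 on every array, Myh11 at most 4.53, and none was called. The part of these other signals in the matrix results was not tested, and fewer cells of a type cannot be told apart from less RNA per cell.

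Replicate arrays differed more over the matrix genes than over all genes. Most matrix genes were brighter than the array medians, and no set of genes matched for signal was compared. The median absolute difference between the replicates was 0.44 log2 units over the matrix genes in Cre Recurred cells, 0.28 in GFP Recurred cells, 0.52 in Cre Naïve cells and 0.34 in GFP Naïve cells, against 0.14 to 0.20 over all genes. In Cre Recurred cells 38 of 47 genes were lower on replicate 1, and 25 of 47 had their lowest signal of all 8 arrays there. Cre Naïve replicate 2 differed from Cre Recurred replicate 2 by a median of 0.28 over the matrix genes, less than the 0.52 by which it differed from its own replicate. It differed by 0.31 and 0.30 from the GFP Naïve arrays and by 0.51 to 0.61 from the other 3 arrays. Over all genes, too, Cre Naïve replicate 2 differed less from Cre Recurred replicate 2, at 0.16, than from Cre Naïve replicate 1, at 0.20. Results that rest on these arrays are given below with and without them.

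**Figure D1:**
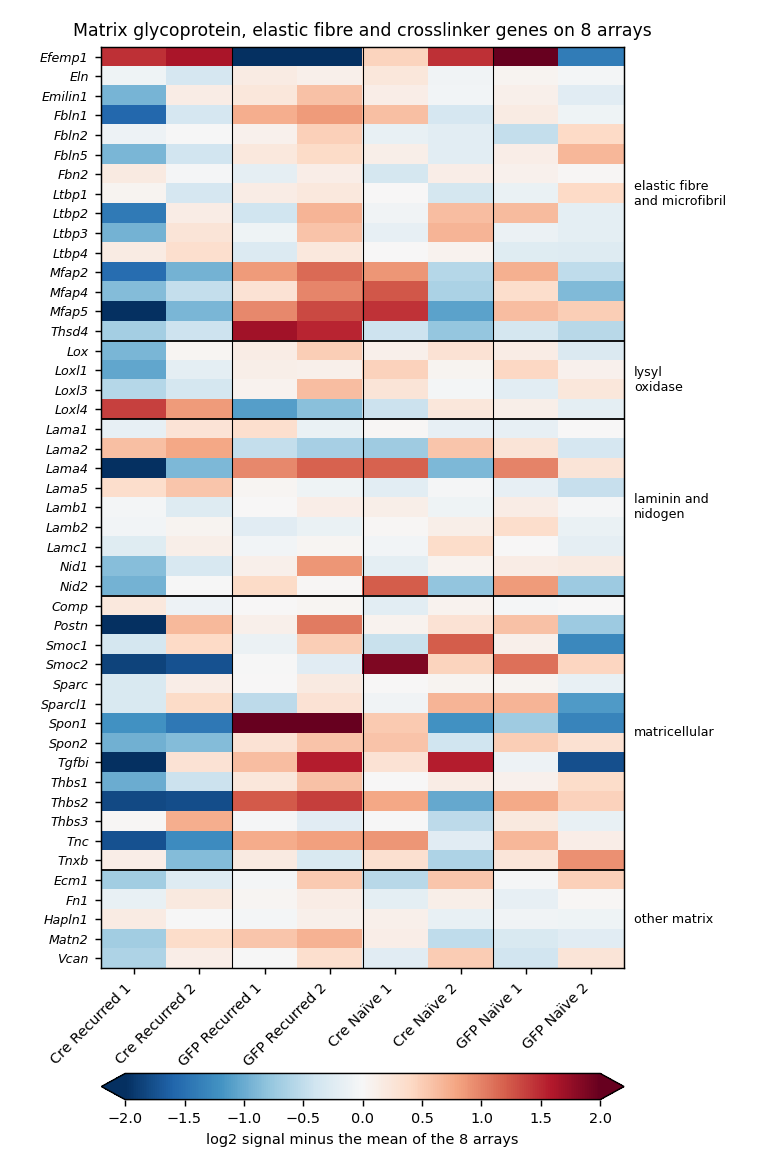
Log2 signal of each of the 47 genes (rows, by functional group) on each of the 8 arrays (columns), as the deviation from the mean of that gene over the arrays; colours end at 2 log2 units either way. The Cre Recurred columns hold most of the deep blue (Tnc, Thbs2, Smoc2), replicate 1 more than replicate 2, while Loxl4 and Lama2 are red there, and Spon1 and Thsd4 are red in the GFP Recurred columns.

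Matrix genes were mostly lower in Cre Recurred than in GFP Recurred cells. Of 47 genes, 36 had a negative and 11 a positive log2 difference, with a median of -0.68 against 0.04 over all genes. A gene is called here at the thresholds of the study, at least 1.5-fold with an adjusted p under 0.25 (limma, Benjamini-Hochberg over 45037 probe sets). By these, 14 of the 47 genes were lower in Cre Recurred cells (29.8%, against 6.55% of all genes), and 3 were higher (6.38%, against 4.81% of all genes). At a stricter adjusted p under 0.05, 2 were lower (0.824% of all genes) and 1 was higher (0.275% of all genes). Both arrays of the Cre Recurred cells lay below both GFP Recurred arrays for 26 genes (23.4% of all genes) and above them for 6 (31.7% of all genes). The 17 calls (11.4% of all genes in either direction) dropped to 3 without Cre Recurred replicate 1 (0.89% of all genes in the same fit), to 4 without GFP Recurred replicate 1 (1.13%) and to 1 without GFP Recurred replicate 2 (0.126%), while the median stayed negative, at -0.29 to -0.94, with any 1 of the 8 arrays left out.

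Of the matricellular genes 6 of 14 were called lower and none higher, with a median log2 difference of -1.18. Spon1, spondin 1, a secreted adhesion protein, had log2 signals of 4.19 and 3.98 on the Cre Recurred arrays, against 8.25 and 7.93 on the GFP Recurred arrays, 5.93 and 4.19 on the Cre Naïve arrays and 4.70 and 4.09 on the GFP Naïve arrays. GFP Recurred cells thus stood above all other arrays. The Cre Recurred cells were lower than the GFP Recurred cells by a log2 difference of -4.01 (SE 0.51, adjusted p = 0.0375, limma, n = 2 arrays each), with the Cre Recurred signals below the array medians, so that no fold is given. The other 3 probe sets of Spon1 differed by -0.32, -0.20 and 0.05 and were not called.

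Thbs2, thrombospondin 2, an inhibitor of blood vessel growth and a regulator of collagen fibril assembly, gave log2 signals of 9.47 and 9.51 in Cre Recurred cells, 12.50 and 12.66 in GFP Recurred cells, 12.05 and 10.25 in Cre Naïve cells and 12.03 and 11.74 in GFP Naïve cells. The 2 Cre Recurred arrays were the lowest of the 8 and the 2 GFP Recurred arrays the highest. The log2 difference between the Recurred populations was -3.09 (SE 0.50, adjusted p = 0.0524, limma), and the remaining 2 probe sets of Thbs2 gave -3.29 and -3.19. Its paralogue Thbs1, which activates latent TGF-beta, had log2 signals of 11.16 and 11.72 in Cre Recurred cells, 12.37 and 12.73 in GFP Recurred cells, 12.16 and 12.29 in Cre Naïve cells and 12.23 and 12.52 in GFP Naïve cells. Cre Recurred cells were again lowest on both arrays, with a smaller log2 difference of -1.10 from GFP Recurred cells (SE 0.22, adjusted p = 0.0783, limma) and -1.14 at the second probe set. Thbs3, another thrombospondin, differed by 0.51 (SE 0.28) and was not called.

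Tnc encodes tenascin C, a large glycoprotein of wounds and tumour stroma that modulates cell adhesion. It had log2 signals of 10.30 and 10.78 on the Cre Recurred arrays, 12.78 and 12.86 on the GFP Recurred arrays, 12.93 and 11.82 on the Cre Naïve arrays and 12.71 and 12.17 on the GFP Naïve arrays. No Cre Recurred array reached the lowest of the 6 others. Between the Recurred populations the log2 difference was -2.28 (SE 0.37, adjusted p = 0.0524, limma), and -2.88 at the second probe set.

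Smoc2, a calcium-binding relative of SPARC found in basement membranes, gave 4.09 and 4.21 on the log2 scale in Cre Recurred cells, 5.94 and 5.72 in GFP Recurred cells, 7.81 and 6.39 in Cre Naïve cells and 7.04 and 6.37 in GFP Naïve cells. The lowest arrays were those of the Cre Recurred cells, the next those of the GFP Recurred cells. The difference from GFP Recurred cells was -1.68 log2 units (SE 0.44, adjusted p = 0.122, limma), and -0.63 without a call at a dim second probe set. Smoc1, the other member of the pair, had a log2 difference of -0.17 (SE 0.64) and overlapping arrays.

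Spon2, a matrix protein that also acts in innate immunity, had log2 signals of 5.80 and 5.90 in Cre Recurred cells, 7.05 and 7.34 in GFP Recurred cells, 7.33 and 6.37 in Cre Naïve cells and 7.25 and 7.07 in GFP Naïve cells. Cre Recurred cells were the lowest on both arrays. The log2 difference of Spon2 between the Recurred populations was -1.34 (SE 0.30, adjusted p = 0.0896, limma) at a probe set that may read several transcripts, while its second, dimmer probe set gave 0.14. The direction for Spon2 therefore rests on 1 probe set. The other matricellular genes were not called and lay between -2.20 (Tgfbi) and 0.51 (Thbs3). Tgfbi, an adhesion protein induced by TGF-beta, had a wide replicate spread, at 7.23 and 10.00 in Cre Recurred cells against 10.33 and 11.29 in GFP Recurred cells. Postn, periostin, was similar in this, with 8.90 and 11.58 in Cre Recurred cells against 11.02 and 11.97 in GFP Recurred cells, so the 2 groups overlapped. Sparc, which binds collagen, differed by -0.18 (SE 0.18).

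**Figure D2:**
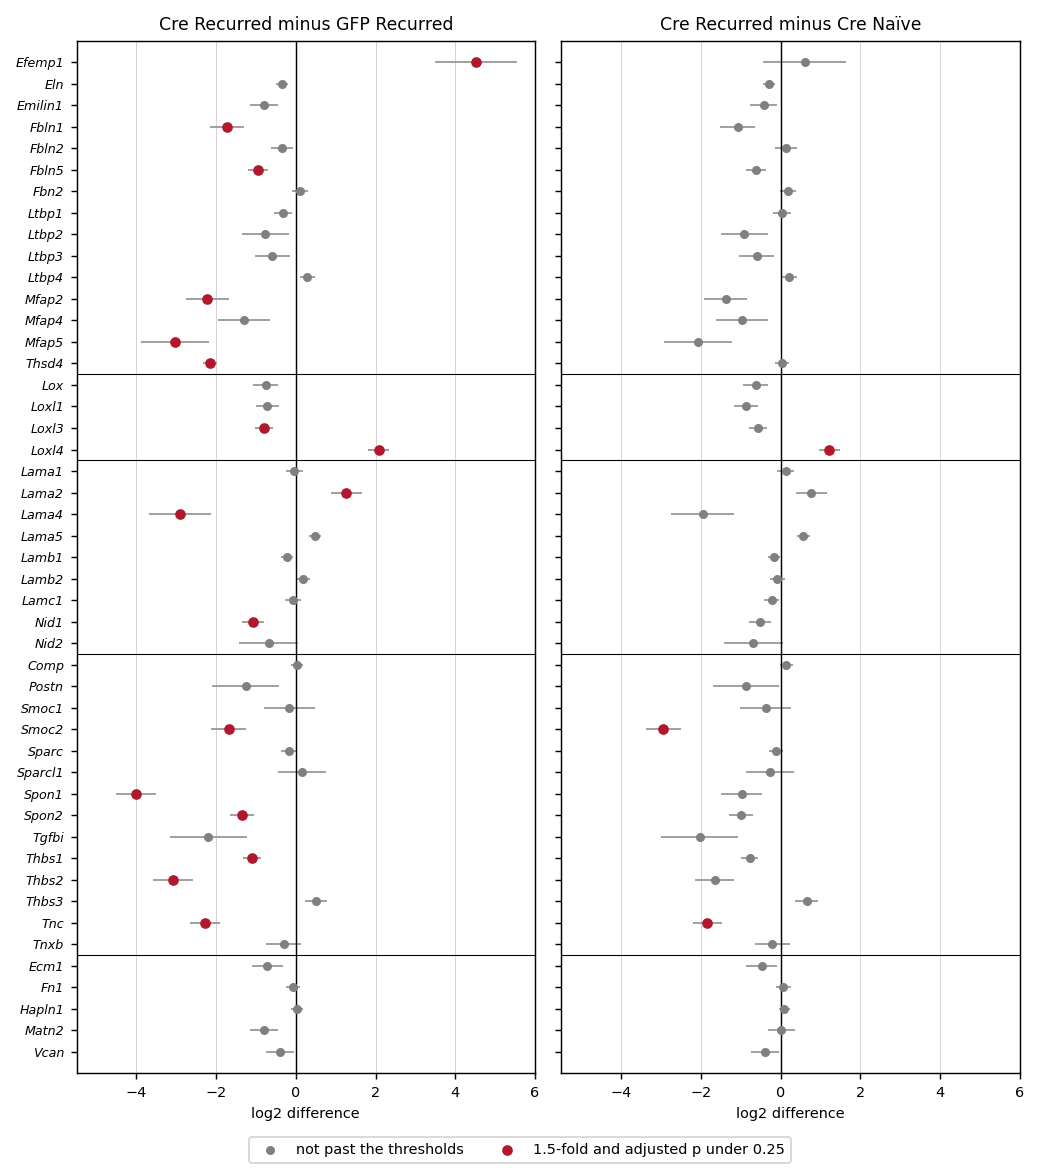
Log2 difference of each of the 47 genes (points, with bars of 1 standard error from the limma fit) for Cre Recurred minus GFP Recurred cells (left) and Cre Recurred minus Cre Naïve cells (right), by functional group from top to bottom as elastic fibre, lysyl oxidase, laminin and nidogen, matricellular and other genes. Red points passed 1.5-fold and an adjusted p under 0.25, 17 on the left and 3 on the right; most points lie left of 0 in both panels.

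Elastic fibre and microfibril genes had a median log2 difference of -0.77 between the Recurred populations, with 5 of 15 lower and 1 higher. Thsd4, an ADAMTS-like protein that promotes microfibril assembly, gave log2 signals of 4.22 and 4.49 in Cre Recurred cells, 6.59 and 6.43 in GFP Recurred cells, 4.50 and 4.13 in Cre Naïve cells and 4.55 and 4.35 in GFP Naïve cells. Only the GFP Recurred arrays stood apart, above the other 6, which lay below the median of all signals. The log2 difference was -2.16 (SE 0.18, adjusted p = 0.015, limma), and this call was kept with each of the 8 arrays left out in turn. A dimmer second probe set of Thsd4 gave 0.06.

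Mfap5, a glycoprotein of microfibrils, had log2 signals of 7.10 and 9.06 on the Cre Recurred arrays, 10.93 and 11.29 on the GFP Recurred arrays, 11.42 and 8.90 on the Cre Naïve arrays and 10.58 and 10.46 on the GFP Naïve arrays. The Cre Recurred arrays were below both GFP populations, but Cre Naïve replicate 2 lay between the 2 Cre Recurred arrays. The log2 difference from GFP Recurred cells was -3.03 (SE 0.86, adjusted p = 0.145, limma), and -2.41 at the second probe set. Mfap2, a smaller glycoprotein of the same microfibrils, had 6.52 and 7.10 in Cre Recurred cells, 8.89 and 9.17 in GFP Recurred cells, 8.92 and 7.47 in Cre Naïve cells and 8.75 and 7.54 in GFP Naïve cells. All 6 other arrays exceeded those of the Cre Recurred cells. The log2 difference from GFP Recurred cells was -2.22 (SE 0.54, adjusted p = 0.109, limma), while the second probe set of Mfap2 gave -0.40 without a call.

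Fibulins, which link elastin to microfibrils and to cells, were split. Fbln1 had log2 signals of 8.74 and 9.98 in Cre Recurred cells, 11.03 and 11.16 in GFP Recurred cells, 10.91 and 9.97 in Cre Naïve cells and 10.47 and 10.23 in GFP Naïve cells, a difference of -1.73 between the Recurred populations (SE 0.43, adjusted p = 0.112, limma). The GFP Recurred arrays were the highest of the 8, and Cre Naïve replicate 2 was level with Cre Recurred replicate 2. The second probe set of Fbln1 gave -1.83 and was called too. Fbln5, which is needed for elastic fibre assembly in mice, had 9.67 and 10.21 in Cre Recurred cells, 10.80 and 10.97 in GFP Recurred cells, 10.71 and 10.38 in Cre Naïve cells and 10.73 and 11.25 in GFP Naïve cells. Cre Recurred cells were lowest on both arrays, with a log2 difference of -0.95 from GFP Recurred cells (SE 0.25, adjusted p = 0.122, limma). A dim second probe set of Fbln5 gave 0.18, and the call was lost with the mean of both probe sets. Fbln2 differed by -0.34 (SE 0.28) and was not called.

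Efemp1, also known as fibulin 3, went the other way. Its log2 signals were 10.69 and 10.86 in Cre Recurred cells, 6.37 and 6.15 in GFP Recurred cells, 9.67 and 10.69 in Cre Naïve cells and 11.59 and 7.84 in GFP Naïve cells. The GFP Recurred arrays were the lowest of the 8, and the Cre Recurred arrays lay within the range of the Naïve arrays. The Cre Recurred cells were 22.9-fold higher than the GFP Recurred cells (log2 difference 4.52, SE 1.04, adjusted p = 0.0982, limma), with only 1 probe set for Efemp1. The remaining 9 genes of the group (Eln, Emilin1, Fbn2, Ltbp1 to Ltbp4 and Mfap4 beside Fbln2) had differences from -1.30 (Mfap4) to 0.29 (Ltbp4), none called. Eln, the gene of elastin, had signals of 5.36 and 5.12 in Cre Recurred cells against 5.61 and 5.55 in GFP Recurred cells, close to the array medians, with a log2 difference of -0.34 (SE 0.15, adjusted p = 0.321, limma).

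Among the lysyl oxidases, the copper enzymes that crosslink collagen and elastin, Loxl4 was higher and the 3 others were lower in sign. Loxl4 had log2 signals of 8.56 and 8.04 on the Cre Recurred arrays, 6.08 and 6.35 on the GFP Recurred arrays, 6.75 and 7.41 on the Cre Naïve arrays and 7.31 and 6.99 on the GFP Naïve arrays. The Cre Recurred arrays were the highest of the 8 and the GFP Recurred arrays the lowest. Cre Recurred cells were 4.22-fold higher than GFP Recurred cells (log2 difference 2.08, SE 0.27, adjusted p = 0.0403, limma), and the second probe set of Loxl4 gave 1.85. The calls of Loxl4 and Spon1 in this comparison were kept with every array left out except GFP Recurred replicate 2.

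Loxl3 had 9.44 and 9.66 in Cre Recurred cells, 10.08 and 10.62 in GFP Recurred cells, 10.27 and 9.97 in Cre Naïve cells and 9.80 and 10.23 in GFP Naïve cells, again lowest in Cre Recurred cells. Its difference of -0.80 from GFP Recurred cells was called (SE 0.23, adjusted p = 0.153, limma). Lox, the founding member, and Loxl1, which acts on elastin, differed by -0.76 (SE 0.32, adjusted p = 0.289, limma) and -0.72 (SE 0.29, adjusted p = 0.268, limma) and were not called. The dimmer second probe set of Loxl1 was called, at -0.91 (SE 0.27, adjusted p = 0.159, limma).

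Laminin and nidogen genes had a median log2 difference of -0.07 and moved in both directions. Lama4, the laminin chain of vessels and mesenchyme, had log2 signals of 6.40 and 8.26 in Cre Recurred cells, 10.12 and 10.33 in GFP Recurred cells, 10.33 and 8.25 in Cre Naïve cells and 10.14 and 9.41 in GFP Naïve cells. Cre Naïve replicate 2 was level with Cre Recurred replicate 2, and the 5 other arrays were higher. The log2 difference between the Recurred populations was -2.90 (SE 0.78, adjusted p = 0.129, limma), and -0.69 without a call at a dim second probe set of Lama4.

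Lama2, the chain of the muscle basement membrane, was higher, with 6.56 and 6.73 in Cre Recurred cells, 5.48 and 5.30 in GFP Recurred cells, 5.24 and 6.51 in Cre Naïve cells and 6.22 and 5.63 in GFP Naïve cells. Its Cre Recurred arrays were the highest of the 8, and the log2 difference from GFP Recurred cells was 1.26 (SE 0.39, adjusted p = 0.175, limma). Nid1, nidogen 1, which joins laminin to type IV collagen, gave 11.29 and 11.83 in Cre Recurred cells, 12.25 and 13.03 in GFP Recurred cells, 11.95 and 12.22 in Cre Naïve cells and 12.29 and 12.32 in GFP Naïve cells. For Nid1 the Cre Recurred arrays were the lowest, with a log2 difference of -1.08 from GFP Recurred cells (SE 0.28, adjusted p = 0.124, limma). The 6 remaining genes, among them the shared chains Lamb1, Lamb2 and Lamc1, lay between -0.68 (Nid2) and 0.48 (Lama5) and were not called. None of the 5 other matrix genes was called by its brightest probe set. The second probe set of Matn2 was called, at -0.93 (SE 0.34, adjusted p = 0.225, limma), against -0.79 without a call at the brightest. Fn1, fibronectin, had log2 signals of 12.73 and 13.08 in Cre Recurred cells against 12.92 and 13.03 in GFP Recurred cells (log2 difference -0.07, SE 0.18).

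**Figure D3:**
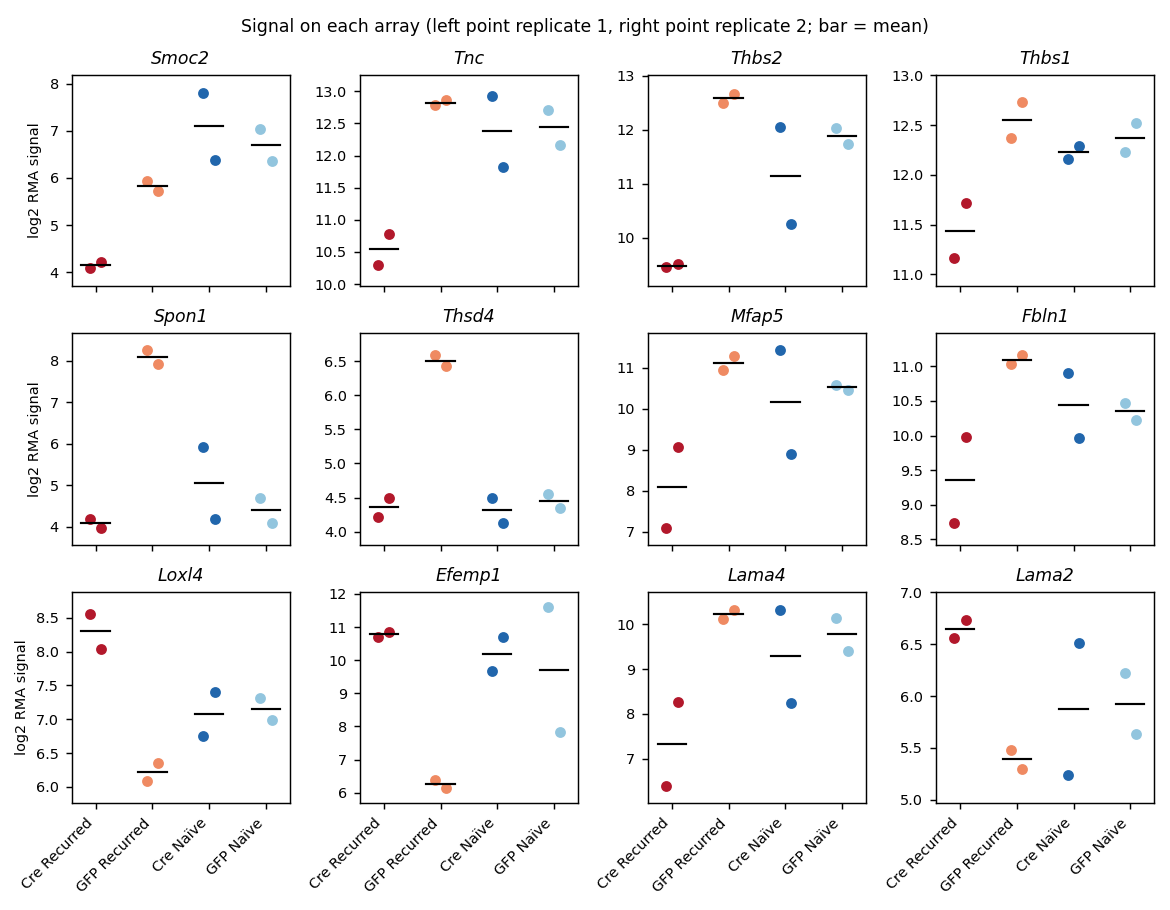
Log2 RMA signal of 12 genes on each array, with Cre Recurred, GFP Recurred, Cre Naïve and GFP Naïve cells from left to right; points are arrays, bars the mean of 2 arrays, and each panel has its own vertical scale. Smoc2, Tnc and Thbs1 are lowest in Cre Recurred cells, Spon1 and Thsd4 stand out in GFP Recurred cells, and Cre Naïve replicate 2 is near the Cre Recurred cells for Mfap5 and Lama4.

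Set against the Cre Naïve cells, which likewise lacked RB but had not been given CDDP, fewer matrix genes passed. Of 47 genes 32 were lower and 15 higher in sign, with a median log2 difference of -0.39 against 0.05 over all genes. Only 2 genes were called lower (4.26%, against 1.2% of all genes) and 1 higher (2.13%, against 0.456% of all genes). None passed the stricter threshold in limma in either direction (0.077% of all genes lower, 0.0165% higher), 14 had an unadjusted p under 0.05 (29.8%, against 14% of all genes), and the SAM-type statistic called none (0.247% of all genes). The arrays did not overlap for 14 lower genes (17.8% of all genes) and 7 higher genes (27.4% of all genes). Smoc2, whose Cre Recurred signals also lay below the array medians, was lower in Cre Recurred cells (log2 difference -2.95, SE 0.44, adjusted p = 0.115, limma), and Tnc was 3.57-fold lower (-1.84, SE 0.37, adjusted p = 0.206). Loxl4 was 2.33-fold higher (log2 difference 1.22, SE 0.27), with an adjusted p of 0.249 from limma, just inside the threshold.

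Without Cre Naïve replicate 2 or without Cre Recurred replicate 2 the number of matrix genes called was 13 instead of 3, where 8.06% and 7.73% of all genes were called, instead of 1.65%. It was 1 without Cre Naïve replicate 1 (0.649% of all genes), and 0 without Cre Recurred replicate 1 (0.066% of all genes) or without either GFP Recurred array (0.22% of all genes). Thbs2, at -1.66 (SE 0.50, adjusted p = 0.325, limma), Mfap5, at -2.08 (SE 0.86, adjusted p = 0.409, limma), and Lama4, at -1.96 (SE 0.78, adjusted p = 0.398, limma), had log2 differences of similar size to the called genes without passing. By group the median log2 difference was -0.83 for matricellular genes, -0.60 for lysyl oxidases, -0.43 for elastic fibre genes, -0.17 for laminins and nidogens and 0.02 for the 5 other genes, among which Ecm1, a binding partner of matrix proteins, had the largest at -0.48 (SE 0.39). Ecm1 had log2 signals of 9.77 and 10.20 in Cre Recurred cells, 10.42 and 10.99 in GFP Recurred cells, 9.91 and 11.02 in Cre Naïve cells and 10.43 and 10.94 in GFP Naïve cells.

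Against the GFP Naïve cells, which differ in both RB and treatment, Cre Recurred cells had 6 genes called lower (12.8%, against 2.94% of all genes) and 2 called higher (4.26%, against 1.2% of all genes), with a median log2 difference of -0.22. The 6 were Smoc2 (-2.56), Thbs2 (-2.39), Tnc (-1.90), Spon2 (-1.31), Fbln5 (-1.05) and Thbs1 (-0.93). The second probe sets of Spon2 and Fbln5 gave 0.19 and 0.01, and both calls were lost with the mean of the probe sets of each gene. Second probe sets of Loxl1 and Fbln1, genes not called here, were called lower, at -1.25 and -1.41. Loxl4 was higher by 1.15 (SE 0.27, adjusted p = 0.197, limma). The other higher gene, Lama5, the laminin chain of epithelial basement membranes, had log2 signals of 6.97 and 7.17 in Cre Recurred cells, 6.65 and 6.53 in GFP Recurred cells, 6.41 and 6.59 in Cre Naïve cells and 6.45 and 6.15 in GFP Naïve cells. Its Cre Recurred arrays were the highest of the 8, with a log2 difference of 0.77 from GFP Naïve cells (SE 0.16, adjusted p = 0.155, limma). The other 2 probe sets of Lama5 gave 0.13 and 0.02, and its call was lost with the mean of the 3. The 8 calls (4.14% of all genes in either direction) became 4 without GFP Naïve replicate 1 (3.31% of all genes), 2 without GFP Naïve replicate 2 (1.42%) and 0 without Cre Recurred replicate 1 (0.132%) or either GFP Recurred array (0.764%). They became 12 without either Cre Naïve array (6.75% of all genes). Smoc2, Tnc and Loxl4 were the 3 genes called against each of the other populations, comparisons that share the Cre Recurred arrays. The dim second probe set of Smoc2 was called in none of these, at -1.84 against Cre Naïve, -0.63 against GFP Recurred and -1.19 against GFP Naïve cells. Against Cre Naïve cells the Loxl4 call was lost with cyclic loess and with the replicate block, where those of Smoc2 and Tnc were kept.

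In GFP cells the median matrix gene was 0.17 log2 units higher in GFP Recurred than in GFP Naïve cells, against 0.01 over all genes. In sign, 36 matrix genes were higher and 11 lower. Their median deviation was 0.10 and 0.38 on the GFP Recurred arrays against 0.13 and -0.09 on the GFP Naïve arrays, so the arrays overlapped. Thsd4 alone was called, higher in GFP Recurred cells (log2 difference 2.06, SE 0.18, adjusted p = 0.168, limma), against 0.011% of all genes called higher, 2 in number. No matrix gene was called lower (0.0055% of all genes), and 5 of 47 had an unadjusted p under 0.05 in either direction (10.6%, against 5.93% of all genes). The call of Thsd4 was lost without GFP Naïve replicate 1 or either GFP Recurred array, where 0 matrix genes were called (0 to 0.011% of all genes). Without GFP Naïve replicate 2, 2 matrix genes were called (0.544% of all genes), and likewise 2 without either Cre Naïve array (0.0605% of all genes). Spon1 had a larger difference of 3.69 (SE 0.51, adjusted p = 0.439, limma) and Efemp1 one of -3.46 (SE 1.04, adjusted p = 0.871, limma), and neither was called.

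Loss of RB without CDDP gave no call. Rb1 itself was lower in Cre Naïve than GFP Naïve cells (log2 difference -2.06, SE 0.26) but was not called (adjusted p = 0.997, limma). The absence of a call in this comparison therefore does not show the absence of a difference. Between Cre Naïve and GFP Naïve cells limma called 0% of all genes and none of the matrix genes, none of which had an unadjusted p under 0.05 (2.45% of all genes), and the SAM-type statistic called none of them either. The median log2 difference was 0.05, and single genes ran from -0.73 (Thbs2 and Tnxb) to 1.86 (Tgfbi). Leaving out Cre Naïve replicate 1 gave 1 call among the matrix genes (0.852% of all genes).

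The effect of recurrence itself was then compared between RB-deficient and RB-proficient cells, as the difference of the differences. The median over the matrix genes was -0.73, against 0.04 over all genes, with 37 negative and 10 positive values. Thsd4 (-2.02, SE 0.25, adjusted p = 0.172, limma) and Spon1 (-4.67, SE 0.72, adjusted p = 0.19, limma) were called lower, against 0.357% of all genes. Loxl4 (2.15, SE 0.39, adjusted p = 0.239, limma) was called higher, against 0.181% of all genes. For Spon1 the recurrence difference was -0.98 in Cre cells against 3.69 in GFP cells, and for Thsd4 it was 0.04 in Cre cells against 2.06 in GFP cells. The other probe sets of Spon1 gave interactions of -0.41, -0.04 and 0.22, and the second probe set of Thsd4 gave -0.01. That of Loxl4 gave 1.97 (SE 0.42, adjusted p = 0.292, limma). None of these was called. The Thsd4 call was lost with the mean of its probe sets, and the Loxl4 call with cyclic loess and with the replicate block. No matrix gene was called without GFP Naïve replicate 1, Cre Recurred replicate 1 or either GFP Recurred array (0 to 0.0495% of all genes), and 12 were called without Cre Naïve replicate 2 (4.86% of all genes) or Cre Recurred replicate 2 (8.1% of all genes).

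Set against the 6 other arrays together, both Cre Recurred arrays were lowest for 11 matrix genes (9.32% of all genes) and highest for 3 (12.9% of all genes). The 11 were Eln, Fbln5, Mfap2, Loxl1, Loxl3, Nid1, Smoc2, Spon2, Thbs1, Thbs2 and Tnc, and the 3 were Loxl4, Lama2 and Lama5. Both GFP Recurred arrays were highest for 6 (5.25% of all genes), namely Emilin1, Fbln1, Thsd4, Spon1, Thbs2 and Matn2. They were lowest for 3 (6.81% of all genes), namely Efemp1, Loxl4 and Lamb2. No matrix gene was highest or lowest on both arrays of either Naïve population, where 1.59% of all genes were highest and 3.06% lowest on the Cre Naïve arrays and 2.35% highest and 3.8% lowest on the GFP Naïve arrays.

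The functional groups differed in how their medians lay on single arrays. The matricellular genes had median deviations of -0.98 and -0.26 on the Cre Recurred arrays, 0.14 and 0.53 on the GFP Recurred arrays, 0.18 and 0.06 on the Cre Naïve arrays and 0.22 and -0.07 on the GFP Naïve arrays. Elastic fibre genes were at -0.87 and -0.33 on the Cre Recurred arrays, 0.16 and 0.57 on the GFP Recurred arrays, 0.12 and -0.21 on the Cre Naïve arrays and 0.11 and -0.19 on the GFP Naïve arrays. Laminins and nidogens lay closer together, at -0.16 and 0.06 on the Cre Recurred arrays against 0.03 and 0.01 on the GFP Recurred arrays. The groups are small and share arrays, and no difference between them was tested.

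**Figure D4:**
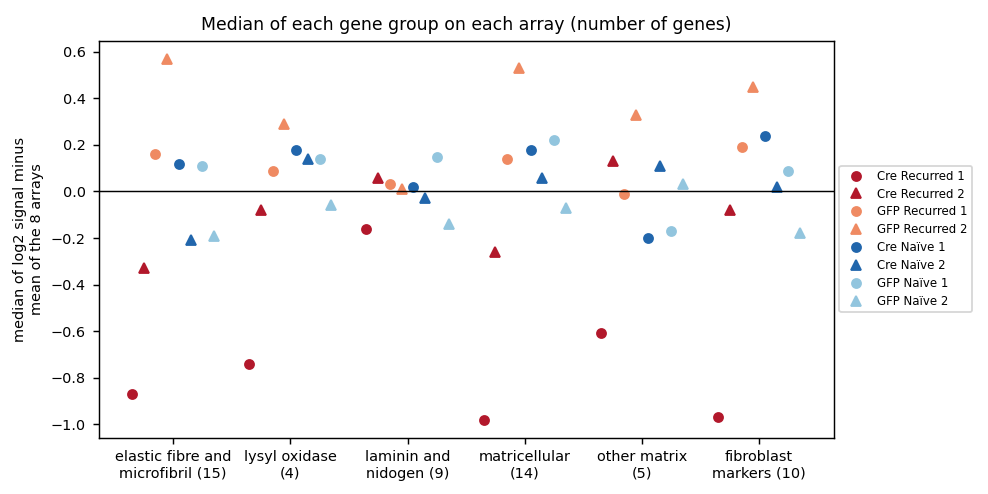
Median deviation of log2 signal from the mean of the 8 arrays for each group of matrix genes and for 10 fibroblast markers; circles are replicate 1, triangles replicate 2, and colours are the 4 populations. Cre Recurred replicate 1 is lowest in every group shown, down to -0.98 for matricellular genes, while the laminin and nidogen medians stay between -0.16 and 0.15.

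Neighbouring genes of the same biology were read from lists beside the 47. Of 45 further matrix genes, 10 were called lower in Cre Recurred than in GFP Recurred cells (22.2%) and 1 higher (2.22%), against 6.55% of all genes lower and 4.81% higher. Fbln7, a cell-binding fibulin, differed by -2.62 (SE 0.49, adjusted p = 0.0689, limma), Hmcn1, hemicentin 1, by -2.81 (SE 0.56, adjusted p = 0.0752), Nov, a CCN family protein, by -2.18 (SE 0.46, adjusted p = 0.0829) and Adamtsl3, an ADAMTS-like protein, by -1.06 (SE 0.24, adjusted p = 0.092). Against Cre Naïve cells, Fbln7 alone was called, at -2.47, and none was higher.

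Of 19 matrix receptors, 4 were higher and 3 lower in Cre Recurred than in GFP Recurred cells, against 4.81% of all genes higher and 6.55% lower. The integrin beta chain Itgb1, shared by most matrix-binding integrins, was higher by 0.69 (SE 0.16, adjusted p = 0.103, limma), and the laminin-binding alpha chains Itga6, by 2.28 (SE 0.68, adjusted p = 0.158), and Itga7, by 0.76 (SE 0.22, adjusted p = 0.154), were higher too. Itga8, the receptor chain for nephronectin, differed by -1.56 (SE 0.26, adjusted p = 0.0533). Of 15 processing genes and TGF-beta regulators 2 were lower and 1 higher, read against the same shares. Tgfb1, which encodes a growth factor that raises matrix synthesis, had log2 signals of 7.95 and 8.06 in Cre Recurred cells against 9.06 and 9.21 in GFP Recurred cells, without overlap (log2 difference -1.12, SE 0.19, adjusted p = 0.0533, limma). Tgfbr3, the TGF-beta coreceptor, differed by -0.85 (SE 0.24, adjusted p = 0.144) and Pcolce2, an enhancer of procollagen processing, by 1.34 (SE 0.50, adjusted p = 0.241). Neither the receptors nor the regulators had a call against Cre Naïve cells, where 1 of 19 receptors and 5 of 15 regulators had an unadjusted p under 0.05 (14% of all genes) and these lists were not put through the SAM-type statistic.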

How the data were processed

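RNA of 8 mouse fibroblast samples, 2 per population, was measured on Affymetrix mouse genome expression arrays. The authors deposited log2 signals made with RMA, which corrects background, normalizes quantiles over arrays and summarises the probes of a probe set; a quantile step hides any shift shared by most genes. The values were used as deposited. Of 45101 probe sets, 64 controls were left out. Symbols came from the platform annotation (34945 probe sets with 1 symbol, 932 with several, 9160 with none).

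limma 3.58.1 (R 4.3.3) was fitted with 1 mean per population over all 8 arrays (4 residual and 3.07 prior degrees of freedom), with Benjamini-Hochberg adjustment over 45037 probe sets. The labels call the replicates biological, and the study states that its arrays covered at least 2 populations generated independently. At which step they were separated is not said, and the p-values measure the spread between these samples. An exact two-sided permutation test of 2 arrays against 2 cannot go below p = 0.333, and the number of arrays limits the precision. The study named SAM; a SAM-type statistic over relabellings, a trended and robust prior, the replicate block, the compared arrays alone, cyclic loess, filters on dim or suffixed probe sets, the mean of a gene's probe sets, an adjusted p under 0.05 and each array left out were the alternatives. The scripts were tested on simulated data.

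The 51 genes, the further lists and the tests were chosen with earlier results of these data known. Values on every array are given for genes called in any pair of populations and, per group, for the gene with the largest difference and the one with the smallest p between Cre Recurred and Cre Naïve cells; of the further lists, up to 4 genes with the smallest adjusted p are named. Promoters came from RefSeq, GRCm38.p6. Python 3.11.15 and matplotlib 3.10.9 drew the figures.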

Additional observations from a re-analysis of the deposited data

Results flagged for a closer look

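Recurrence after CDDP went with a different difference in Cre than in GFP cells for 3 genes, each past 1.5-fold and an adjusted p under 0.25 in the limma test of the interaction. For Spon1 the interaction was -4.67 log2 units, from -0.98 between Cre Recurred and Cre Naïve cells and 3.69 between GFP Recurred and GFP Naïve cells. For Thsd4 it was -2.02, from 0.04 in Cre cells and 2.06 in GFP cells. For Loxl4 it was 2.15, from 1.22 in Cre cells and -0.93 in GFP cells. These calls were made at the brightest probe set of each gene, and no other probe set of the 3 genes was called. With 2 arrays per population no search for single outlying arrays was made.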

How the results depend on the processing

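Of 535 values of single called genes under the alternatives, 369 stayed called in the same direction, and Spon2 turned round without suffixed probe sets, at 0.14 against GFP Recurred and 0.19 against GFP Naïve cells. With an adjusted p under 0.05 the calls were 0 for Cre Recurred against Cre Naïve, 3 against GFP Recurred and 0 against GFP Naïve cells, 0 for GFP Recurred against GFP Naïve cells and 0 for the interaction. The SAM-type statistic gave 0 calls against Cre Naïve and 4 against GFP Naïve cells, and 3 for GFP Recurred against GFP Naïve cells. The compared arrays alone gave 0, 5 and 2 for these comparisons. No share of all genes stands beside these counts here, so they describe only how the calls moved with the method. For GFP Recurred against GFP Naïve cells, 0 calls were left without dim probe sets, where Thsd4 was not tested, and with the mean of a gene's probe sets. Leaving out 1 array gave 0 to 13 calls against Cre Naïve, 1 to 24 against GFP Recurred and 0 to 12 against GFP Naïve cells, 0 to 2 for GFP Recurred against GFP Naïve, 0 to 1 for Cre Naïve against GFP Naïve and 0 to 12 for the interaction. The medians then ran from -0.69 to -0.13 against Cre Naïve, -0.94 to -0.29 against GFP Recurred and -1.02 to -0.28 for the interaction. With 1 array left the lone array was assumed to vary like the others. The causes were not tested. The replicate numbers did not pair the samples (correlations of deviations from -0.255 to 0.307); with the replicate block the calls were 3, 18 and 9 for Cre Recurred cells in the order above, 0 for GFP Recurred against GFP Naïve cells, 0 for Cre Naïve against GFP Naïve cells and 2 for the interaction. The SAM-type statistic and the compared arrays alone were not run for the interaction. Dim genes such as Fbn2, Lama1, Hapln1 and Comp, below a log2 signal of 6 on all arrays, allow no statement on small differences.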
